A study of Mus musculus with 14 samples.

Results

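The 7 arrays described here carried RNA of the pair-fed group of a fetal alcohol study in C57Bl6 mice, each measured against one pool of control RNA. They are 7 of 14 arrays in all and were chosen by their label, Pair Fed 01 to 07. Their dams ate and drank ad libitum (as much as they wanted) until gestational day 14 and were fed maltose dextrin over gestational days 15 to 18, before delivery on gestational day 19. The sample description calls the sugar maltose dextrose, and the array titles name the pregnant females while the description names fetuses. The other 7 arrays belong to the alcohol-fed group, whose dams were exposed to ethanol over the same gestational days at about 180 to 200 mg/dl, with 4 days of exposure in the protocol and 5 in the titles. Every array compared 1 sample, labelled with Cy5, against the same pool of RNA from 7 ad libitum fed animals, labelled with Cy3. The pool is the untreated control of the study, although the labels of its channel also call it weight matched. No mouse carried a transgene or induced allele according to the labels. The labels name no tissue. A ratio to a pool gives no level of expression, so marker genes could not be used to check a tissue.

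Pair feeding is the standard dietary control of alcohol studies. An animal that drinks ethanol eats less, so a partner is given the same calories with sugar in place of ethanol, and it therefore shares the reduced or altered intake. Late gestation is when the mouse fetus gains most of its weight. Maternal food restriction in that window is known to act on fetal growth through insulin-like growth factors, on liver fuel handling through fasting regulators, and on glucocorticoids. The question the pair-fed arrays address is how far this diet alone set the animals apart from freely fed controls.

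Each value is a log2 ratio for 1 probe on 1 array, centred on the array's median, so that 1 unit is a 2-fold difference. The direction, sample over pool, is likely from the dye labels and the channel order but is not stated with the values. If it were the other way round, every rise and fall below would exchange places. The scale and the authors' own centring are also read from the values. All arrays had the sample in the same dye, and the pool stands for 1 control sample with no spread of its own in the test, so a dye effect, the composition of the pool and the diet cannot be told apart. Nothing says that the 7 samples came from separate litters. P-values therefore reflect how far these samples differ among themselves, a spread that may be technical.

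The table holds 21582 probes, of which 16635 carry 1 gene symbol. Exact zeros and the highest value in the table recurred as placeholders and were left out, at 3.33% to 5.44% of the probes on pair-fed arrays 1 to 5, 14.6% on array 6 and 9.51% on array 7. Before centring, array medians ran from -0.62 to 0.68. Across probes, pairs of pair-fed arrays correlated at r = 0.257 to 0.545 with a median of 0.417 over 21 pairs, and the probes are not independent replicates. Precision is set by the number of arrays: the median half-width of a probe's 95% interval was 0.83 on the log2 scale, and 75.3% of probes had an interval lying wholly within 4-fold of the pool.

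**Figure D1:**
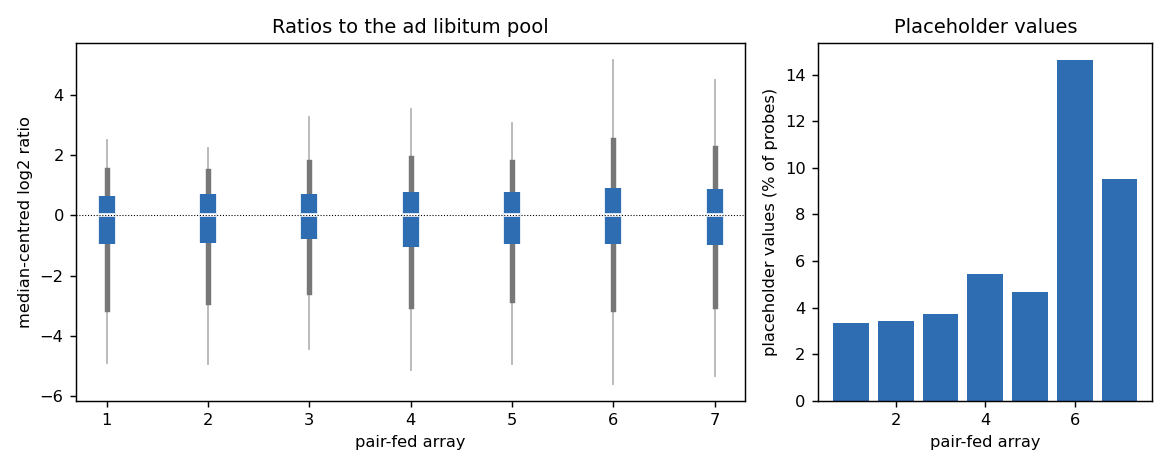
Left, the median-centred log2 ratios of all probes on each of the 7 pair-fed arrays, with the median as a white mark, the 25th to 75th percentile as a blue bar, the 5th to 95th percentile as a thick grey line and the 1st to 99th as a thin one. Right, the percentage of probes on each array at a placeholder value. Arrays 6 and 7 hold the most placeholders, 14.6% and 9.51%, and have the longest upper tails.

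In the pair-fed arrays, 2906 of 21162 probes tested differed from the pool at an adjusted p under 0.05 by limma's moderated test with Benjamini-Hochberg adjustment, which is 13.7% of the probes and is the meaning of "called" from here on. Falls outnumbered rises. The called probes comprised 864 higher (4.08%) and 2042 lower (9.65%), although the median over all probes tested was -0.03. Among them, 1192 differed at least 4-fold, 196 upwards and 996 downwards. Beyond 16-fold the sides were closer, with 92 probes higher and 120 lower. The number of calls fell from 2906 to 1795 without array 1, to 1721 without array 4 and to 1732 without array 5.

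The preponderance of falls went with missing values. The 15726 probes measured on all 7 arrays had a median of 0.13, and 828 of them were called higher and 1288 lower. Of 5436 probes measured on 4 to 6 arrays, 36 were called higher and 754 lower, and their median was -0.59. The part that placeholder values play in this excess of falls was not tested. Quantile normalization, which forces the 7 arrays to 1 distribution and was run without centring, gave 1384 probes higher and 1872 lower, a share of higher calls of 42.5% instead of 29.7%. With the arrays centred on their medians after it, an alternative chosen after seeing the data, 917 were higher and 2125 lower, or 30.1% higher. The median over all probes was 0.08 without that centring and -0.03 with it. Counted by gene symbol, 2233 of 14814 genes (15.1%) had a called probe, with 665 (4.49%) having one higher and 1577 (10.6%) one lower.

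**Figure D2:**
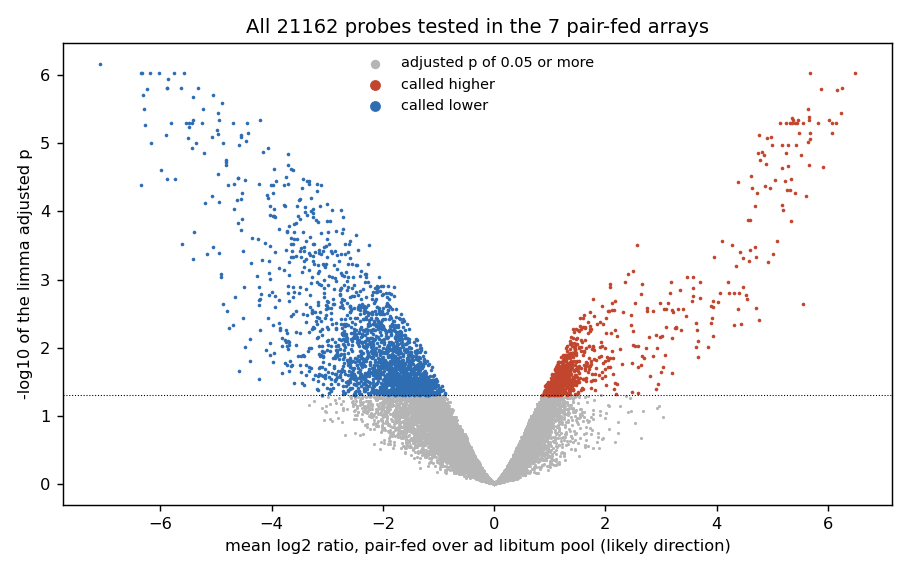
Mean log2 ratio of the 7 pair-fed arrays to the ad libitum pool (horizontal) against -log10 of the limma adjusted p (vertical) for each of the 21162 probes tested. The dotted line marks an adjusted p of 0.05, with 864 probes called higher in red and 2042 called lower in blue. The lower side is denser between 2-fold and 16-fold.

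A gene symbol in these data stands for a single probe, and that matters for what follows. For 881 genes with exactly 2 tested probes, the 2 mean ratios had the same sign in 429 genes (48.7%). Where 1 probe was called, the other had the same sign in 104 of 207 genes (50.2%). Turned to the sign of the called probe, the second probe had a median of 0.004, against a median size of 1.77 for the called one. Both probes were called for 20 genes, in the same direction for 13 and in opposite directions for 7. The inner ear matrix gene Coch was among those that matched, at -3.19 and -3.98, as was the sperm mitochondrial capsule gene Smcp at -2.70 and -4.81. Opposite calls were made for the ubiquitin ligase gene Ttc3, at 2.79 and -3.40, and for the sperm gene Spata6, at -2.36 and 4.54. The lower Spata6 probe has values on arrays 1 to 4 only, could not be tested without any of them, and was not called with exact 0 kept as a value (-1.30, limma adjusted p 0.0852). Coch, Smcp, Ttc3 and Spata6 were picked after their values were seen. The cause of the disagreement was not tested, and each value below belongs to the probe assigned to the gene named.

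**Figure D3:**
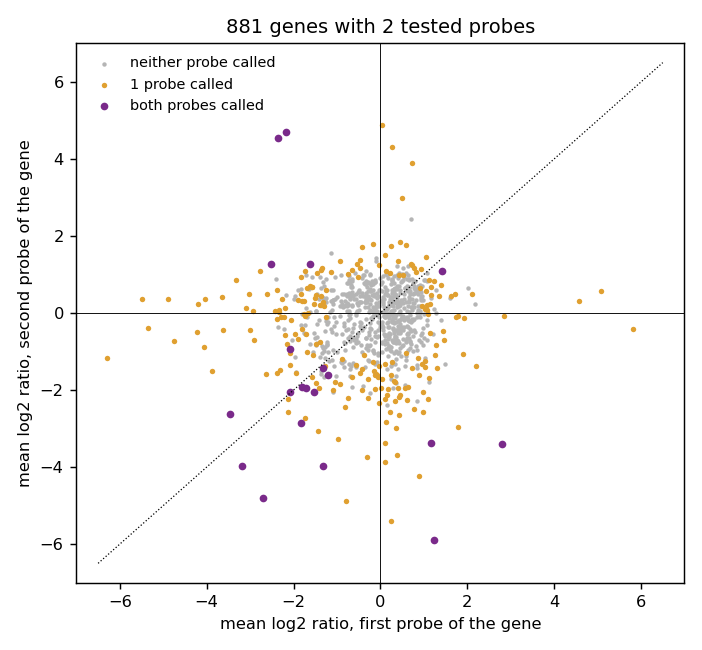
Mean log2 ratio of the 7 pair-fed arrays for the first (horizontal) and second (vertical) tested probe of each of 881 genes with 2 probes. Grey points have neither probe called, orange points 1, and purple points both (20 genes). The dotted line marks equal values. Points spread along both axes rather than along that line, and 429 of the 881 genes have the same sign on both probes.

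The probes farthest above the pool belonged to genes of unrelated roles. Hspg2 encodes perlecan, a heparan sulfate proteoglycan of basement membranes, and its values on the 7 arrays had a lowest of 5.52, a median of 6.53 and a highest of 7.25. All 7 arrays were high, with a mean log2 ratio of 6.48 ± 0.30 (SE, n = 7), or 89.2-fold, and a limma adjusted p of 9.35e-07. Sertad3, a transcriptional coregulator of the SERTA family, ran from 4.65 through a median of 6.53 to 7.15, with a mean of 6.26 ± 0.34. Arrdc5, an arrestin-domain protein, had a mean of 6.15 ± 0.34 and Mrgprb4, a receptor of skin-innervating sensory neurons, one of 6.07 ± 0.41. The membrane protrusion protein Prom2 followed at 5.88 ± 0.32. Ttc14, a tetratricopeptide repeat protein, stood at 5.82 ± 0.39 on one probe, while its other probe stood at -0.42 and was not called. The nuclear factor Naif1 (5.68 ± 0.40), the RNA methyltransferase Mettl6 (5.66 ± 0.46) and the translational repressor Paip2 (5.65 ± 0.36) closed the named part of the 12 highest. The remaining 3 were the uncharacterised transcripts 1700101O22Rik (6.07 ± 0.43), 5430403G16Rik (5.91 ± 0.49) and 4930404K13Rik (5.68 ± 0.28). The choice of these 12 required the same sign on all 7 arrays, and the lowest single value among them was 2.86, for Mettl6.

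Vipr2, the VPAC2 receptor for vasoactive intestinal peptide, lay farthest below the pool. Its values had a lowest of -7.69, a median of -7.14 and a highest of -6.61. Every array was more than 16-fold below the pool, with a mean of -7.07 ± 0.28 (SE, n = 7) and a limma adjusted p of 6.88e-07. Ccl5, a chemokine that attracts T cells, ran from -7.29 through -6.46 to -5.56 with a mean of -6.34 ± 0.31. The zinc-sensing receptor Gpr39 had a mean of -6.33 ± 0.31 and the kinase Wnk2 one of -6.31 ± 0.36. Among metabolic genes, the mitochondrial carbonic anhydrase Car5b lay at -6.29 ± 0.38, the cholesterol synthesis enzyme Lss at -6.01 ± 0.29 and the serine synthesis enzyme Psat1 at -5.88 ± 0.51. Car5b's second probe read -1.16 and was not called.

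The other probes among the 12 lowest were assigned to the RNA-binding protein Bicc1 (-6.28 ± 0.43), the cytokine signalling suppressor Socs4 (-5.99 ± 0.50), the heparan sulfate proteoglycan Gpc4 (-5.90 ± 0.42), the epithelial keratin Krt13 (-5.87 ± 0.31) and the mitochondrial iron-sulfur protein Cisd1 (-5.86 ± 0.30). Gpc4's second probe was called the other way, at 1.23. Psat1 was uneven, with arrays 1 and 2 at -4.23 and -3.06 and the other 5 between -7.25 and -6.00.

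The 10 probes next in order of p, outside the 12 highest and 12 lowest, lay mostly below the pool. Morc4, a chromatin-associated ATPase, ran only from -6.16 to -5.56, with a mean of -5.75 ± 0.26 and a limma adjusted p of 9.35e-07. The Wnt transducer Dvl1 had a mean of -5.63 ± 0.30, the serine hydrolase Rbbp9 one of -5.32 ± 0.28 and cystathionine gamma-lyase, Cth, one of -5.22 ± 0.31. The receptor Gpr85 stood at -5.41 ± 0.31 on one probe and 0.25 on another. The deubiquitinase Otub2 (-4.95 ± 0.31), Tmem270 (-5.05 ± 0.29) and 5730409K12Rik (-5.58 ± 0.27) were also lower. Only 2 of the 10 were higher, the cadherin Cdh9 (5.65 ± 0.34) and 4930523O13Rik (5.34 ± 0.34).

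The alcohol-fed arrays were measured against the same pool, so their ratios share it. For Hspg2 their mean was 5.52, for Vipr2 -7.52, for Ccl5 -5.68 and for Psat1 -4.24. Among the highest and lowest probes given above, Psat1 and Hspg2 differed most between the groups. Others nearly coincided, such as Mrgprb4 (6.06 alcohol-fed, 6.07 pair-fed), 4930404K13Rik (5.71 and 5.68) and Gpr39 (-6.41 and -6.33). All of these highest and lowest probes had an alcohol-fed mean on the same side of the pool as the pair-fed mean.

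**Figure D4:**
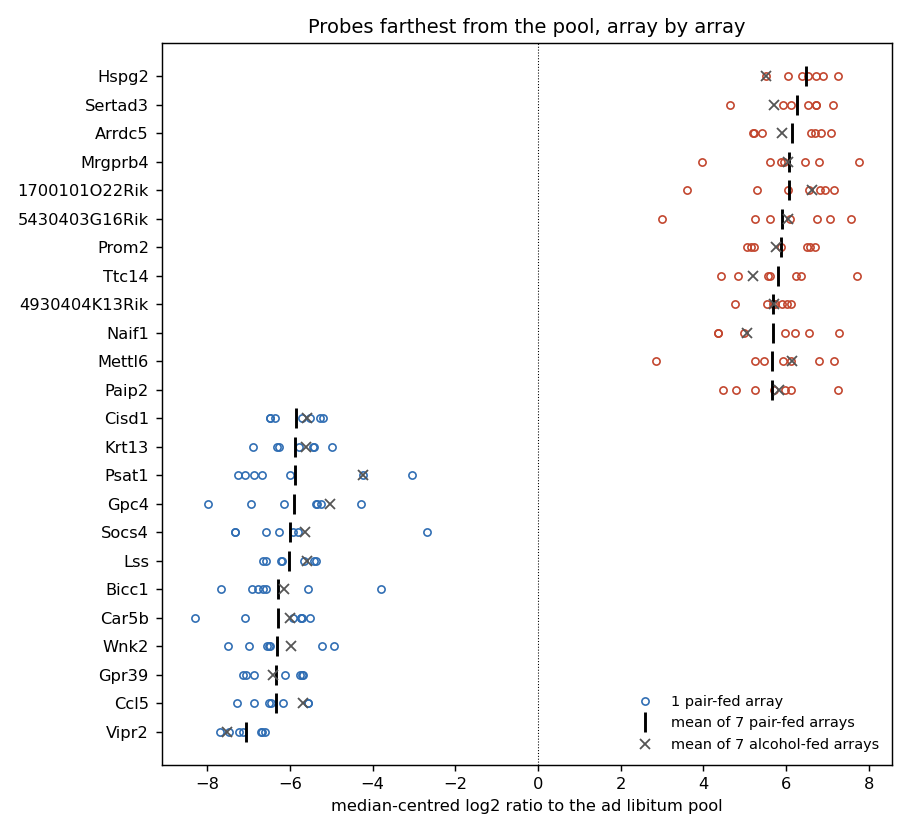
Median-centred log2 ratios to the ad libitum pool for the 12 probes highest and the 12 lowest in the pair-fed group. Open circles are single pair-fed arrays, black bars the means of the 7 pair-fed arrays and grey crosses the means of the 7 alcohol-fed arrays against the same pool. Hspg2 leads the upper side at 6.48 and Vipr2 the lower at -7.07.

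The genes of fetal growth and maternal feeding were examined in 13 lists. Insulin and the insulin-like growth factors act through the kinases of the PI3K and mTOR pathways, and binding proteins hold the factors in the circulation. In this list 3 of 22 genes tested rose and 3 fell (27.3% called). The background for this and the following lists is 15.1% of all named genes called, 4.49% higher and 10.6% lower. The median of its probes was -0.10 against -0.03 for all named probes. Igf1, the main growth factor of late gestation and after birth, had a lowest of -4.0, a median of -2.34 and a highest of -1.07. All 7 arrays were below the pool, array 7 least and array 1 most, with a mean of -2.39 ± 0.36 and a limma adjusted p of 0.00196. Its binding proteins went both ways: Igfbp1 fell by 2.18 (SE 0.61, n = 6) and Igfbp2 by 1.65 (SE 0.42, n = 5), while Igfbp5 rose by 1.26 (SE 0.30, n = 7). The adaptor Irs2 rose by 1.37 (SE 0.34), as did 1 probe of the kinase subunit Pik3ca by 1.27 (SE 0.29), whose second probe read -0.83.

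Of these 6 calls, those of Igf1 and Pik3ca held whichever array was left out. Igfbp1 was lost without arrays 1, 3, 4 or 5 (limma adjusted p up to 0.0997), Igfbp2 without arrays 1, 2, 3 or 6 (up to 0.0819), Igfbp5 without arrays 4 or 5 (up to 0.0585), and Irs2 without arrays 2, 5 or 7 (up to 0.0584). With exact 0 kept as a value Igfbp1 (0.0569) and Igfbp2 (0.0823) were not called. Igf2, the principal fetal growth factor, was uneven at -4.64, 0.80 and 1.88 for its lowest, median and highest of 6 arrays, and was not called. The receptor genes Igf1r, with probes at -0.23, -0.09 and 0.37, and Insr, at 0.54, were not called either.

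In the growth hormone, thyroid and leptin axis, 3 of 13 genes fell and none rose. Stat5a, the transcription factor that carries growth hormone and prolactin signals, ran from -5.13 through -4.40 to -2.48, with a mean of -4.06 ± 0.39 and a limma adjusted p of 6.41e-05. The appetite peptide gene Cartpt fell by 1.55 (SE 0.32, n = 6). Tshr, the thyrotropin receptor, fell by 1.38 (SE 0.34), with array 7 at -3.17 and the other 6 between -1.43 and -0.70. Among imprinted growth genes, expressed from 1 parental copy, the growth-restraining RNA H19 fell by 2.84 (SE 0.51) and the zinc finger gene Plagl1 by 1.91 (SE 0.39), while the zinc finger gene Zim1 rose by 1.46 (SE 0.29), with a median array at 1.35. Gnas, the stimulatory G protein, fell by 1.47 (SE 0.42) on one probe and read 1.03 on another; that call was lost without arrays 1, 2, 3, 5 or 7 (limma adjusted p up to 0.106). In all, 4 of 17 imprinted genes were called.

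Regulators of fuel use moved on few probes. The coactivator Ppargc1a, which drives mitochondrial and fasting genes, had a lowest of -6.00, a median of -2.42 and a highest of -1.05, with a mean of -2.71 ± 0.50. The nuclear receptor Ppara, the fatty acid sensor of the fasting liver, ran from -4.67 through -2.29 to -1.31, with a mean of -2.58 ± 0.42. The insulin-inhibited transcription factor Foxo3 fell by 1.33 (SE 0.29) on one probe, and its other read 0.96. None of the 7 arrays was above the pool for Ppargc1a, Ppara or that probe of Foxo3. In gluconeogenesis and fasting 2 of 11 genes fell and 0 rose, with a list median of -1.35. The arrays did not share that median: it ran from -1.73 on array 1 and -1.53 on array 3 to 0.13 on array 6 and 0.18 on array 4. In fatty acid oxidation and ketogenesis 1 of 11 fell, Ppara, and 1 rose, the mitochondrial carnitine enzyme Cpt2 at 1.00 ± 0.29, whose call was lost without any 1 of the 7 arrays (limma adjusted p up to 0.0877).

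Lipid synthesis was called on both sides of the pool. Thrsp, a lipogenic regulator, fell by 1.38 (SE 0.29) and the acetyl-CoA carboxylase Acacb by 1.72 (SE 0.44, n = 6), with a second Acacb probe at 0.04. They were 2 of 17 genes of fatty acid and triglyceride synthesis. In cholesterol synthesis 2 of 13 genes were called in opposite directions: Lss fell, as given above, and squalene epoxidase, Sqle, the enzyme just before it in the pathway, rose by 1.65 (SE 0.38). Acacb was lost without arrays 1, 2, 4 or 7 (limma adjusted p up to 0.0767) and with exact 0 kept as a value (0.0508), and Sqle without array 5 (0.0516).

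Sugar handling and respiration gave 5 calls. The glycogen-targeting phosphatase subunit Ppp1r3c fell by 3.32 (SE 0.66, n = 6) and the fructose transporter Slc2a5 rose by 1.77 (SE 0.46), 2 of 10 genes of glycogen and fructose handling. Among 17 genes of glycolysis and hypoxia 1 fell, hexokinase Hk2, by 1.79 (SE 0.52, n = 6). The median of the list's probe means was -1.14. Medians taken array by array lay between -0.93 and -0.20, so no array was as low as that. In oxidative phosphorylation 2 of 19 fell, cytochrome c, Cycs (-3.18 ± 0.53), and the cytochrome oxidase subunit Cox7a2 (-2.40 ± 0.41, n = 6). Slc2a5 was lost without arrays 3, 4, 6 or 7 (limma adjusted p up to 0.0779) and Hk2 without arrays 1, 3, 4, 5 or 7 (up to 0.114) and with exact 0 kept as a value (0.0642). Of 17 genes of amino acid transport and response only Psat1 was called.

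Glucocorticoid and lysosomal genes gave 1 call in each list, 7.69% and 6.67% of the genes against 15.1% of all named genes. In the glucocorticoid axis 1 of 13 genes fell, Mc2r, the adrenal receptor for corticotropin (-2.68 ± 0.52). In autophagy and lysosome 1 of 15 fell, the protease Ctsd, by 1.34 (SE 0.37), a call lost without arrays 1, 2, 3, 4, 5 or 7 (limma adjusted p up to 0.0861).

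Of the 17 lists of cell type markers, skeletal muscle had the highest share of called genes, 11 of 20 (55.0%) against 15.1% of all named genes. The median of its probes was 0.01 all the same, because the 3 rises and 8 falls stood among 20 probes that were not called. A gene counts as called by any 1 of its probes, and this list had 31 probes tested for its 20 genes. The pancreas list, with 41.7% of genes called, had 12 probes for 12 genes. Counted by probe, 11 of 31 were called in muscle and 5 of 12 in pancreas, so muscle was not first by that count. Muscle formation is set off by 4 related transcription factors, which turn on the genes of the contractile apparatus. Of these, Myog, Myf6 and Myf5 fell and MyoD, Myod1, was not called.

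Myog, myogenin, which starts the fusion and differentiation of muscle cells, had values of -4.60, -4.16, -4.16, -3.93, -4.16, -1.87 and -2.33 on arrays 1 to 7. Myf6, the factor of mature fibres, had -5.55, -4.52, -3.86, -3.54, -3.94, -1.95 and -2.67 in the same order. Myf5, an early factor of muscle precursors, had -3.97, -4.56, -2.92, -3.31, -3.28, -1.28 and -2.67. All 21 values lay below the pool, and the smallest fall of each gene was on array 6, followed by array 7, the pair with the most placeholder values, whose part in this was not tested. The means were -3.60 ± 0.39 for Myog (limma adjusted p 0.000151), -3.72 ± 0.41 for Myf6 (0.000203) and -3.14 ± 0.38 for Myf5 (0.000402). Myod1, with a value on 4 arrays, ran from -0.97 to 0.44 with a mean of -0.10 ± 0.43 and was not called. The alcohol-fed means against the same pool were -3.61 for Myog, -3.67 for Myf6 and -3.54 for Myf5.

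These factors bind the E-box, CANNTG, a motif that reads alike on both strands. The 250 bases before the start sites of Myog and Myf5 are shown with each E-box in capitals, from RefSeq on GRCm38.p6. Myf6, which fell as well, had no entry among the promoter stretches used and is left out. The Myog stretch is chr1:134289754-134290003 on the plus strand and the Myf5 stretch chr10:107486135-107486384 on the minus strand.
Myog: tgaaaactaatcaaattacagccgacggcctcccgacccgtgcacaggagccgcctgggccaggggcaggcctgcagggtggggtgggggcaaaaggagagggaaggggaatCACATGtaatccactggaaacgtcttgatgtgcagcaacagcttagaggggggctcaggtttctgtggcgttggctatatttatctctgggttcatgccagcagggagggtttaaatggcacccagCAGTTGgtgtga
Myf5: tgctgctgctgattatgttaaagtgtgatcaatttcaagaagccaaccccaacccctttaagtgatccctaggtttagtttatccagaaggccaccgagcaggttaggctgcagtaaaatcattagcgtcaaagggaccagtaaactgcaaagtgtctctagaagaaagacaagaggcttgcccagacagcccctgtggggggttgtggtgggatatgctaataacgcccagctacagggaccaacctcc
The Myog stretch holds 2 E-boxes and the Myf5 stretch 0. Of 32851 promoter stretches of the same length in the RefSeq table, 66.2% hold at least 1. A match is a description of the letters and no evidence of binding.

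The contractile genes of the list were not uniform. The fast troponins fell, Tnni2 by 3.33 (SE 0.41) and Tnnc2 by 2.32 (SE 0.31), as did skeletal actin, Acta1, by 2.04 (SE 0.35) and the oxygen store myoglobin, Mb, by 1.53 (SE 0.34). One probe of the Z-disc gene Actn2 fell by 1.26 (SE 0.34, n = 6), with the other at -0.11. The intermediate filament gene Des rose by 1.09 (SE 0.26), with all 7 arrays between 0.63 and 1.47. The rises of 2 very large genes rested on 1 probe each: the calcium channel Ryr1 stood at 4.60 ± 0.55 on one of 7 probes with the other 6 between -0.68 and 0.77, and titin, Ttn, at 3.69 ± 0.56 on one of 5 with the other 4 between -1.24 and 0.45. Actn2 was lost without arrays 1, 3, 4, 5 or 7 (limma adjusted p up to 0.101) and with exact 0 kept as a value (0.0625), and Des without arrays 1 or 5 (up to 0.0599). Leaving out any 1 array left between 9 and 12 genes of the list called. Tnni2, Tnnc2, Acta1, Mb, Actn2, Des and Ttn were named after their values were seen. The labels name no tissue, so the muscle content of the samples is not known. Bulk ratios cannot tell fewer muscle cells from less of these RNAs per cell. Nor can they tell either from a dye effect or the composition of the pool, and the same holds for the other lists.

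**Figure D5:**
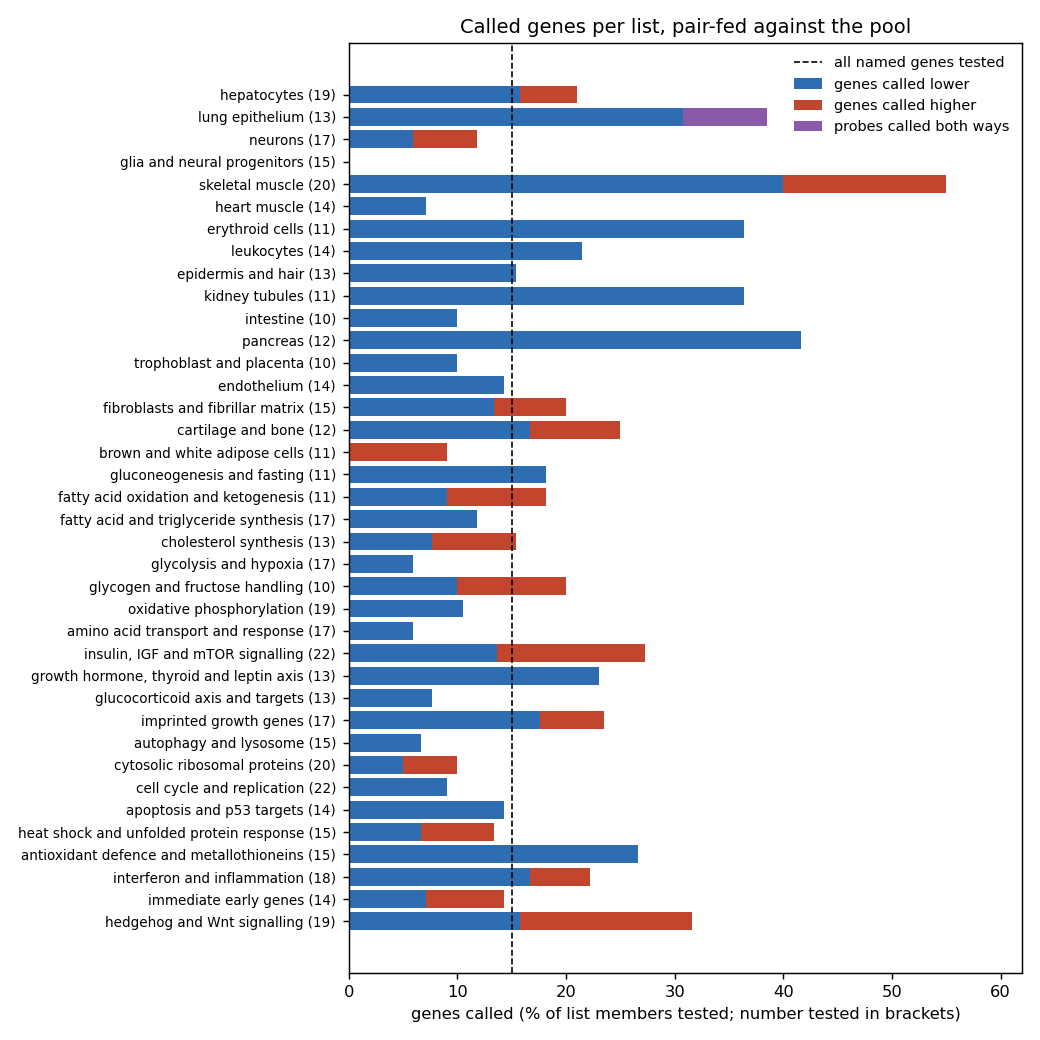
Percentage of the tested genes of each of 38 lists (number tested in brackets) with a probe called lower (blue), higher (red) or both ways (purple) in the pair-fed arrays. The dashed line marks all named genes tested, 15.1%. Skeletal muscle reaches 55.0% and glia and neural progenitors 0.

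Markers of epithelial organs were called lower on several probes. For lung epithelium 4 of 13 genes fell and 1, Abca3, was called both ways. The lung and thyroid factor Nkx2-1 fell by 2.06 (SE 0.46), the water channel Aqp5 by 2.85 (SE 0.68, n = 4), the phosphate carrier Slc34a2 by 1.28 (SE 0.28) and surfactant protein C, Sftpc, by 1.63 (SE 0.45). For Sftpc array 1 stood at -4.60 and the next at -1.58, and the call was lost without arrays 2, 4 or 5 (limma adjusted p up to 0.0776). Aqp5 has values on arrays 1 to 4 only and could not be tested without any of them. With exact 0 kept as a value Aqp5 stood at -1.58 and was not called (limma adjusted p 0.105). The surfactant lipid transporter Abca3 read 4.70 on one probe and -2.18 on the other.

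For the pancreas 5 of 12 genes fell: the elastases Cela1 by 2.15 (SE 0.36, n = 6) and Cela2a by 1.47 (SE 0.32), and the islet hormones Iapp by 1.54 (SE 0.30), Sst by 1.59 (SE 0.41) and Ins2 by 2.06 (SE 0.57, n = 5). Sst was lost without arrays 1, 2, 5 or 6 (limma adjusted p up to 0.0771) and Ins2 without arrays 1, 3, 4 or 5 (up to 0.12) and with exact 0 kept as a value (0.0997). Pdx1, the master factor of the pancreas, read 0.61 and was not called.

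For kidney tubules 4 of 11 genes fell, and 0 to 2 were left when 1 array was taken out. They were the endocytic receptor Lrp2 (-1.82 ± 0.47, n = 6), the phosphate carrier Slc34a1 (-1.72 ± 0.50), the cadherin Cdh16 (-2.26 ± 0.67) and uromodulin, Umod (-0.99 ± 0.29). Lrp2 was lost without arrays 1, 3, 5 or 6, Slc34a1 without arrays 1, 3, 4, 5 or 6, Cdh16 without any array but 6 and Umod without any array but 3, with limma adjusted p up to 0.0798, 0.103, 0.0996 and 0.11. The tight junction protein Cldn3, in the intestine list, fell by 2.71 (SE 0.28) on arrays between -3.21 and -2.03, as 1 of 10 genes of that list.

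Blood was represented by erythroid and leukocyte markers. Of 11 erythroid genes 4 fell: the embryonic globins Hbb-bh1 (-4.38 ± 0.94, n = 6) and Hba-x (-2.84 ± 0.57), the anion exchanger Slc4a1 (-2.40 ± 0.43, n = 4) and the transferrin receptor Tfrc (-2.34 ± 0.40). Hbb-bh1 was very uneven, at -9.14 on array 4 and -7.06 on array 5 but -1.31 on array 6 and -1.42 on array 7. The second probes of Hba-x and Tfrc read 0.13 and -0.03. Slc4a1 has values on arrays 1, 3, 5 and 6 only and could not be tested without any of them. With exact 0 kept as a value it stood at -1.40 and was not called (limma adjusted p 0.0637). Of 14 leukocyte genes 3 fell, the interleukin 7 receptor Il7r by 3.25 (SE 0.33), the myeloid integrin Itgam by 1.40 (SE 0.27) and neutrophil elastase, Elane, by 1.5 (SE 0.36). Elane was lost without array 5 (limma adjusted p 0.0587).

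Liver and connective tissue had calls both ways. Among 19 hepatocyte genes the retinol carrier Rbp4 fell by 2.62 (SE 0.37), the apolipoproteins Apoa2 by 1.82 (SE 0.31) and Apoh by 1.38 (SE 0.35, n = 5), and 1 probe of the liver factor Hnf4a rose by 1.12 (SE 0.32) with the other at -1.36. Apoh was lost without arrays 1, 2, 3 or 5 (limma adjusted p up to 0.105) and with exact 0 kept as a value (0.0716), and Hnf4a without any 1 of the 7 (up to 0.102). Of 15 fibroblast and matrix genes the collagens Col1a1 (-2.71 ± 0.43) and Col5a1 (-2.59 ± 0.56, n = 5) fell and the proteoglycan Lum rose by 1.31 (SE 0.34). Col5a1 was lost without array 5 (0.0576) and with exact 0 kept as a value (0.0664), and Lum without arrays 1, 4, 5 or 7 (up to 0.0841). In cartilage and bone 3 of 12 were called, Col11a1 at -1.89, Dmp1 at -1.07 and osteocalcin, Bglap, at 1.12. Col11a1 was lost without arrays 1, 2, 4 or 5 (up to 0.0781), Bglap without arrays 1, 4 or 5 (up to 0.0628), and Dmp1 without any array but 6 (up to 0.0893).

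Markers of the nervous system gave 2 calls, both neuronal. Of 14814 named genes 15.1% were called and 5084 had an unadjusted p under 0.05 by limma. By limma 0 of 15 glial and progenitor markers were called, with 3 at an unadjusted p under 0.05. Their smallest p belonged to S100b, a glial calcium-binding protein, at -1.21 ± 0.37 (n = 6), and the progenitor factor Sox2 read 1.04 ± 0.38. Up to 1 gene of that list was called when 1 array was left out. Among 17 neuronal genes the GABA-synthesising enzyme Gad2 fell by 4.23 (SE 0.57, n = 6) on one probe with the other at 0.89, and the neurofilament Nefl rose by 1.10 (SE 0.30), a call lost without arrays 1, 3, 4, 5, 6 or 7 (limma adjusted p up to 0.0886). These were 11.8% of the neuronal genes, and 9 of the 17 had an unadjusted p under 0.05. The median of the neuronal list was 0.56 and was positive on all 7 arrays, from 0.27 to 0.63.

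The remaining marker lists had 1 or 2 calls each. Cardiac troponin T, Tnnt2, fell by 3.14 (SE 0.51, n = 6), as 1 of 14 heart genes. The junction protein Esam fell by 2.16 (SE 0.42) and the receptor Tie1 by 1.19 (SE 0.32), 2 of 14 endothelial genes, of which Tie1 was lost without arrays 1, 2, 4, 5 or 6 (limma adjusted p up to 0.0886). Keratin 15, Krt15, of the basal epidermis fell by 1.70 (SE 0.29) and keratin 4, Krt4, by 1.19 (SE 0.32), 2 of 13 epidermal genes, and Krt4 was lost without arrays 1, 3, 4, 5 or 7 (up to 0.0689). Of 10 trophoblast genes 1 fell, the placental protease Cts7, by 2.09 (SE 0.45, n = 4), and of 11 adipose genes 1 rose, resistin, Retn, by 1.24 (SE 0.35). Retn was lost without arrays 1, 2, 4, 5, 6 or 7 (up to 0.085), and Cts7, with a value on arrays 1, 2, 3 and 6 only, had too few values to be tested once any of these was left out and was not called with exact 0 kept as a value (-1.18, 0.0919).

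Signalling genes were called in both directions. Hedgehog and Wnt ligands pattern most fetal organs, and their receptors sit at the head of each pathway. Of 19 genes tested 3 rose and 3 fell. Fzd1, a Wnt receptor, had a lowest of 3.59, a median of 4.83 and a highest of 6.01, with a mean of 4.76 ± 0.34 and a limma adjusted p of 7.44e-06. Its coreceptor Lrp6 rose by 3.94 (SE 0.62), with a range from 0.97 to 6.35, and the nuclear effector Lef1 by 1.31 (SE 0.30). The Wnt inhibitor Dkk1 fell by 2.69 (SE 0.57, n = 6), with 1 of its arrays above the pool at 0.41. The hedgehog receptor Ptch1 ran from -4.48 through -3.24 to -2.55 on the called probe, with a mean of -3.37 ± 0.30, and its second probe read 0.12. The hedgehog-binding protein Hhip fell by 2.04 (SE 0.49, n = 6), a call lost without arrays 1, 4 or 5 (limma adjusted p up to 0.0711). The ligand Shh, at -0.85, and the effector Gli1, at 0.39, were not called. Among immediate early genes, which respond within minutes to growth signals, Egr2 rose by 5.17 (SE 0.39), on arrays between 3.83 and 6.62, and its relative Egr3 fell by 1.83 (SE 0.44). They were 2 of 14, and Egr3 was lost without arrays 1, 2, 3 or 4 (up to 0.0588).

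Stress and defence genes were examined in 4 lists, beside a background of 10.6% of all named genes called lower and 4.49% higher. In the antioxidant list 4 of 15 fell and 0 rose: catalase, Cat, by 3.00 (SE 0.51, n = 6), plasma glutathione peroxidase, Gpx3, by 3.09 (SE 0.62, n = 6), thioredoxin, Txn1, by 2.43 (SE 0.66, n = 4) and 1 probe of the quinone reductase Nqo1 by 1.79 (SE 0.51, n = 5), with the other at 0.31. With a value required on all 7 arrays, 0 genes of that list were called, since none of the 4 probes has 7 values. Txn1, with a value on arrays 1, 2, 4 and 7 only, could not be tested without any of these, was lost without arrays 3 or 5 (limma adjusted p up to 0.0604) and kept its call without array 6. Nqo1 was lost without arrays 2 to 7 in turn (up to 0.118). With exact 0 kept as a value neither Txn1 (-1.44, 0.107) nor Nqo1 (-1.21, 0.118) was called. Of 18 interferon and inflammation genes Ccl5 fell as above, as did the cytokine Il1b by 2.05 (SE 0.34) and the antiviral gene Ifit1 by 1.95 (SE 0.40), and the cytokine Tnf rose by 1.11 (SE 0.27), a call lost without arrays 3, 4 or 5 (up to 0.0536). The death receptor Fas fell by 2.22 (SE 0.41) and the caspase it activates, Casp8, by 1.73 (SE 0.31), 2 of 14 apoptosis genes. The constitutive chaperone Hspa8 read -3.64 ± 0.44 on one probe and 0.42 on the other, and the endoplasmic reticulum chaperone Hspa5 1.37 ± 0.33 on one and -0.47 on the other. They were the 2 called of 15 chaperone genes, and Hspa5 was lost without array 4 (0.0525).

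Genes of cell growth gave 2 calls in each of 2 lists, 9.09% and 10% of their genes, where 15.1% of all named genes were called. Of 22 cell cycle genes the cyclin Ccnd1 fell by 1.23 (SE 0.33) and the replication helicase subunit Mcm4 by 2.33 (SE 0.59, n = 6). Of 20 cytosolic ribosomal protein genes Rps16 fell by 4.07 (SE 0.69) on one probe and Rps19 rose by 1.33 (SE 0.35). The second Rps16 probe read -0.89. Ccnd1 was lost without arrays 1, 2, 3 or 5 (limma adjusted p up to 0.0863), Mcm4 without arrays 2, 3, 5 or 6 (up to 0.0778) and Rps19 without arrays 1, 2, 4, 5 or 6 (up to 0.0818). The ribosomal list had a median of 0.14, and array medians ran from -0.67 to 0.61 around it, so the arrays did not share a direction.

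Families that share a symbol stem, with at least 20 genes tested, were counted for 65 stems without any list. These families were picked after the counts were seen, and their counts stand beside 10.6% of all named genes called lower and 4.49% higher. Odorant receptors, Olfr, which smell receptor neurons express, had 39 of 134 genes lower and 3 higher (31.3% called), with a median of -0.67. Olfr1264 fell by 3.55 (SE 0.38) on arrays between -4.61 and -1.81, whereas Olfr33 rose by 4.09 (SE 0.47). Members of this family are close in sequence, so a probe can also report a relative. The membrane proteases of the Adam family had 9 of 26 lower (34.6%) and 0 higher, led by the sperm protein Adam4 (-2.55 ± 0.33) and the muscle and bone protease Adam12 (-2.08 ± 0.30). Claudins, which seal tight junctions, had 7 of 24 lower (29.2%) and 0 higher, among them Cldn3, Cldn15 (-2.48 ± 0.36) and Cldn18 (-1.77 ± 0.33). The alcohol-fed medians against the same pool were -0.70 for Olfr, -0.45 for Adam and -0.51 for claudins. The pair-fed medians were -0.67, -0.32 and -0.39 in the same order.

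The prolactin family of mice, most of whose members are placental hormones, had 6 of 21 genes lower (28.6%, against 10.6% of all named genes) and 0 higher. Prl2b1 ran from -5.21 through -3.99 to -2.22 with a mean of -3.96 ± 0.40, Prl2a1 had a mean of -3.12 ± 0.31 and Prl7a2 one of -3.65 ± 0.41. All 3 were below the pool on every array. The median of the prolactin family was -0.49 on the pair-fed arrays and -0.93 on the alcohol-fed ones. Fibroblast growth factors had 6 of 22 lower (27.3%) and 0 higher, with a median of -1.20, against -0.69 on the alcohol-fed arrays. They included the limb and lung factor Fgf10 (-1.93 ± 0.44), the epithelial growth factor Fgf7 (-2.25 ± 0.33, n = 5) and Fgf3 (-3.65 ± 0.55, n = 5). Fgf10 was lost without array 5 (limma adjusted p 0.0507). At the other end, C-type lectins, Clec, had 0 of 21 called by limma, with 3 at an unadjusted p under 0.05. Large ribosomal subunit proteins, Rpl, had 1 of 40 called (2.5%). Of 14814 named genes 15.1% were called and 5084 had an unadjusted p under 0.05 by limma.

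Setting the pair-fed against the alcohol-fed arrays cancels the pool. Limma called 0 of 20876 probes between the groups, with 881 at an unadjusted p under 0.05 and a lowest adjusted p of 0.9996. This does not show that the groups were alike: the median half-width of the interval of a difference was 1.09 on the log2 scale, and a 4-fold difference lay outside that interval for 76.8% of probes. Against the pool, the alcohol-fed arrays alone had 5342 of 21147 probes called (25.3%), and this count and the pair-fed 2906 share the pool and come from separate fits.

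The smallest p between the groups belonged to Ahrr, which represses the dioxin-sensing aryl hydrocarbon receptor. Its pair-fed values on 4 arrays ran from -0.07 through a median of 1.81 to 5.34 and its alcohol-fed values on 4 arrays from -7.0 through -4.29 to -3.61, without overlap. The leukocyte integrin Itga4 ran from -5.49 through -3.27 to -1.65 on the pair-fed arrays and from -2.10 through -0.90 to -0.21 on the alcohol-fed ones, which overlap. Pard6g, a cell polarity gene, had a pair-fed mean of -1.96 and an alcohol-fed mean of -0.10. The adjusted p of all 3 was 0.9996.

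The 6 widest spreads among the pair-fed arrays came from single probes of genes of mixed roles. Smc6, a subunit of a DNA repair complex, ran from -1.68 through a median of 1.13 to 11.1, and Serpinb8, a protease inhibitor, from -2.93 through 1.03 to 10.2. The endothelial adhesion molecule Madcam1 ran from -9.52 to 3.07, the mitochondrial ubiquitin ligase Mul1 from -8.62 to 4.16, the ferritin pseudogene Fth-ps2 from -8.51 to 1.62 and the membrane fusion gene Snap29 from -2.49 to 8.48. None of these 6 was called in the main fit. Without array 5, Snap29 was called at -1.59 (limma adjusted p 0.0159). Fth-ps2 was called in some alternatives, such as without array 7 (limma adjusted p 0.0466). At the opposite end, the probe of the brain proteoglycan Cspg5 stayed between -0.10 and 0.20 on all 7 arrays, with a mean of 0.05 ± 0.25. The oligosaccharyltransferase subunit Stt3b (-0.33 to 0.36), the synapse protein Syn2 (-0.71 to 0.35), the secretory granule lectin Zg16 (-0.67 to 0.47), the adaptor Nck2 (-0.47 to 0.64) and the selenocysteine elongation factor Eefsec (-0.54 to 0.43) also stayed within 2-fold of the pool.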

How the data were processed

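RNA of 7 pair-fed and 7 alcohol-fed samples was measured on two-colour arrays. Per the labels' protocols, RNA was extracted with an Ambion miRNA isolation kit and labelled with a Genisphere 3DNA Cy3/Cy5 kit. The authors deposited 1 log2 ratio per probe and array; that the unit is log2 is read from the values. How the arrays were scanned, background-corrected and normalized before deposit is not given in those labels. Signal over background was not analysed here.

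Exact 0 and the highest value, 16.61, were set to missing, each array was centred on its median, and probes with values on at least 4 of 7 pair-fed arrays were tested against 0 (420 were not) with limma 3.58.1 in R 4.3.3 (lmFit, eBayes, two-sided, Benjamini-Hochberg over all probes tested, threshold 0.05). The fit used the 7 pair-fed arrays only. The alcohol-fed minus pair-fed contrast used all 14 arrays and at least 4 values in each group. Errors are limma standard errors, n = 7 unless given. The pair-fed fit was also run on simulated data in which 200 of 21162 probes had been shifted. It recovered 0% of them when the shift was 2-fold, 54% when it was 4-fold and 86.5% when it was 8-fold. Among unshifted probes it called 0, 5 and 4 in the same order. The simulated noise was normal and independent between probes, with each probe's observed spread. The 200 shifted probes were a far smaller share than the 13.7% called in the data, so the adjusted threshold was stricter in the simulation. These recovery rates therefore do not carry over to the data, where Cpt2 was called at 1.00. A probe that was not called may still differ 2-fold from the pool.

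Symbols come from the platform annotation, with 113 probes carrying several and 4834 none. Where the gene number of a probe matched RefSeq, the RefSeq symbol was used. List members were matched by symbol or by RefSeq synonym. A gene is named by its probe of smallest p. The rule names the 12 highest and 12 lowest called probes with 7 values of 1 sign, the next 10 by p, up to 4 members of each list by p, the 6 largest SDs and the 6 intervals narrowest around 0; not all list members so named are printed, and exceptions are stated. The members and the 38 gene lists were chosen with earlier results of these data known, so no list was tested as a set. Lists give probes on the array that passed the filter. Alternatives were other missing-value rules, filters, normalizations, array weights, robust variances, a fold threshold, all 14 arrays in 1 fit, and each array left out.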

Additional observations from a re-analysis of the deposited data

Results flagged for a closer look

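Of 180 sets of 4 to 7 pair-fed values checked with Dixon's criterion, 15 had an array standing apart from the others. Chance flags about 1 in 20, or 9.0, of sets picked without regard to their values. Many of these sets were picked by their values, among them the 6 largest SDs, so 15 cannot be judged against 9.0. The array is named with its value and its nearest neighbour. On array 1 the low values were Sftpc (-4.60, next -1.58), Ppargc1a (-6.00, next -2.86) and Thrsp (-2.45, next -1.49). On array 2 the values closest to the pool were Socs4 (-2.69, next -5.81) and Gad2 (-1.02, next -4.29). Krt4 was low on array 3 (-2.74, next -1.36). Array 4 was low for 4930404K13Rik (4.76, next 5.54) and high for Smc6 (11.1, next 3.34). Array 5 was low for Morc4 (-6.16, next -5.80) and Mul1 (-8.62, next -1.0) and high for Snap29 (8.48, next -0.95). On array 6 H19 was low (-6.00, next -3.13) and Iapp near the pool (-0.40, next -1.40). Array 7 was low for Tshr (-3.17, next -1.43) and Syn2 (-0.71, next -0.10). Of these genes 11 were called against the pool, and Smc6, Mul1, Snap29 and Syn2 were not. The share of placeholders, the median, the spread and the correlation of the arrays gave no such gap.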

How the results depend on the processing

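The 2906 calls became 4450 with all 14 arrays in 1 fit and 1098 against a log2 fold threshold of 0.5, and ranged from 1721 to 2802 with 1 array left out. Under the other settings tried they lay between 2354 (values as deposited) and 3560 (array weights). The 864 higher calls became 1641 in the 14-array fit, 217 with the fold threshold and 1384 with quantile normalization (share of higher calls 42.5% instead of 29.7%; 917 higher, or 30.1%, once the arrays were centred after it, an alternative chosen after seeing the data), and 413 to 707 with 1 array left out. Requiring a value on all 7 arrays gave 1080 higher and 1492 lower (42.0% higher) and moved the 1192 calls of at least 4-fold to 791. Without arrays 6 and 7, an alternative chosen after seeing the data, 464 were higher (19.3%) and 1935 lower. The 2042 lower calls became 881 with the fold threshold and 1275 to 2095 with 1 array left out. The calls of at least 4-fold ranged from 1003 to 1270 with 1 array left out. The shift under quantile normalization went with the centring. The cause of the others was not tested, apart from the fewer probes tested where 7 values are required and the stricter null of the fold threshold. Setting values within 0.0095 of 0, or ratios of small whole numbers, to missing, also added after seeing the data, gave 2918 and 2875 calls. Of 160 called probes among the 176 followed by name, 100 kept their call in every one of the 22 alternatives in which they were tested, 42 lost it when some array was left out, and 0 reversed. Among those not called in the main fit, Snap29, Fth-ps2, Sox2, S100b and the lactate dehydrogenase gene Ldha were called in at least 1 alternative. The called probes of Aqp5, Slc4a1, Cts7, Txn1 and Spata6 with 4 values could not be tested without any of the 4 arrays they were measured on. The fold threshold ended 57 of these calls, leaving out arrays 6 and 7 together 29, values as deposited 18 and exact 0 kept as a value 14. Calls that ended in no fit with 1 array left out in which they were tested, but ended otherwise, were those of Aqp5, Slc4a1, Cts7 and 1 probe of Spata6 (exact 0 kept), Tshr (values as deposited, and without arrays 6 and 7) and Lef1 and Dkk1 (without arrays 6 and 7), beside those ended only by the fold threshold. Alcohol-fed against pair-fed gave 0 calls in each setting, 0 to 0 with 1 array left out. Same-numbered arrays of the 2 groups correlated at -0.10 to 0.23, and only arrays 4 and 6 matched their own number best. These correlations cannot show whether same-numbered samples were feeding partners, and the main contrast used no replicate block. With the replicate block 0 of 20099 probes were called, with 1060 at an unadjusted p under 0.05, and the rest could not be fitted. The number of arrays limits the precision.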
